A study of Mus musculus with 6 samples.

Results

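Transcripts of 10 macrophage marker genes were followed in mouse gastrocnemius muscle. The genes were Adgre1, Cd68, Csf1r, Mrc1, Cd163, Lyve1, Itgam, Fcgr1, Lyz2 and Cd14, and they were found by their symbols among the 49315 genes of the count table. The 10 symbols matched 11 rows, because Itgam was attached to a pair of Ensembl identifiers. Of the 10 genes, 9 had enough counts to be tested, and Fcgr1 did not.

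The muscles came from male C57BL6J mice, an inbred laboratory strain, injected into the muscle at 5 months of age with AAV9, an adeno-associated virus often used to carry genes into muscle, and collected 5 months later. In 3 mice (AAV9-HSA-CAAHR) the virus encoded CAAHR, a version of the aryl hydrocarbon receptor that regulates its target genes without any ligand. In 3 mice (AAV9-HSA-GFP) it encoded green fluorescent protein. The human skeletal actin (HSA) promoter drove both, so that the transgene was meant for muscle fibres and not for macrophages. Both groups carried virus, and uninjected muscle was not analysed here, so a lower level with CAAHR and a higher level with GFP cannot be told apart. Wherever a gene is said to have fallen, its level was lower than in GFP muscle.

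Libraries held between 43432994 and 58825752 counts, and 3 counts corresponded to 0.0492 to 0.0721 CPM, a measure of abundance corrected for library depth. Levels are given as CPM after TMM scaling (trimmed mean of M values), and libraries are named by group and by the number in their titles. Ahr averaged 16.7 CPM with CAAHR and 2.29 CPM with GFP, and its target genes Cyp1a1 and Ahrr were higher in all 3 CAAHR libraries, as their labels say. Markers of skeletal muscle were abundant, at 111300 to 150100 CPM in sum with CAAHR and 179800 to 182900 CPM with GFP, and 3 of 5 were called lower (between 0 and 4 with 1 library left out). Of these markers Mb ran the other way, at a mean of 2219 CPM with CAAHR and 1086 CPM with GFP, and was not called. Counts of libraries of the same group differed by more than sampling noise in every pair, and CAAHR 34 stood farthest from its group (chi-square per degree of freedom of 169 and 108, against 23.8 to 51.9 between GFP libraries). Among the markers, CAAHR 34 was the lowest of the 6 libraries for 8 of the 10 genes and GFP 43 the highest for 8 of the 10.

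Macrophages are phagocytes that live in every tissue. In skeletal muscle, resident macrophages lie around vessels and fibres and clear debris, while monocytes that enter from the blood after damage or infection become inflammatory macrophages. Adgre1 (F4/80), Cd68 and Csf1r are carried by most macrophages. Mrc1 (CD206), Cd163 and Lyve1 are typical of resident macrophages, whereas Itgam (CD11b), Fcgr1 (CD64), Lyz2 and Cd14 are abundant in monocytes and in inflammatory macrophages. Not all of these markers belong to macrophages alone, since neutrophils also carry Itgam and Lyz2, and Lyve1 also marks lymphatic endothelium.

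Myeloid cells switch on many of these genes through PU.1, the transcription factor encoded by Spi1. For 6 of the 10 markers (Cd68, Mrc1, Cd163, Itgam, Fcgr1 and Lyz2) RefSeq supplied a promoter on GRCm38.p6, and the stretch from 250 to 51 bases before the start was searched on both strands for the PU.1 core GAGGAA and for the AHR core GCGTG. The PU.1 core was present in 3 of the 6 stretches, in those of Cd68, Mrc1 and Itgam, and in 18.8% of all 32851 promoter stretches of this length. The AHR core was in 0 of the 6 and in 22.6% of all. These matches describe the letters only, and the part of PU.1 or of AHR in the marker levels was not tested. The 3 stretches with a PU.1 core are shown with the core in capitals (TTCCTC where it lies on the opposite strand), together with that of Lyz2, the most abundant marker, which held neither core. Each reads 5′ to 3′ on the strand of its gene.
Cd68, chr11:69666221-69666420, minus strand: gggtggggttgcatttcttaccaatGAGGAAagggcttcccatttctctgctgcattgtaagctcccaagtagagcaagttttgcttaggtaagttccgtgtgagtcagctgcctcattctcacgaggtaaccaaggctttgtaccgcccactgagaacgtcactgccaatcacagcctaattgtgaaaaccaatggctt
Mrc1, chr2:14229164-14229363, plus strand: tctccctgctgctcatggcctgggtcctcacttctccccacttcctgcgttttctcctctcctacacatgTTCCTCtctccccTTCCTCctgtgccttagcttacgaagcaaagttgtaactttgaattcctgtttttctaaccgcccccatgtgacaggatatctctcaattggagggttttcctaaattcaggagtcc
Itgam, chr7:128062390-128062589, plus strand: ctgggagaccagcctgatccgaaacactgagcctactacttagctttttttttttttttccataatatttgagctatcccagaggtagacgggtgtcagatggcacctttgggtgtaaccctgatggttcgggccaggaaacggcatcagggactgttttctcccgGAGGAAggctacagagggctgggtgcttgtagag
Lyz2, chr10:117282323-117282522, minus strand: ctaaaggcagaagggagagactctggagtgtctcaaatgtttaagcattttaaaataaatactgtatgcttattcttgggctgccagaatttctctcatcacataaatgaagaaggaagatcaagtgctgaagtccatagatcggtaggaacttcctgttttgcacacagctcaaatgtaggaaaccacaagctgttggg

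The 9 tested markers were all lower on average in CAAHR muscle than in GFP muscle, but the difference did not pass the test for any of them. With the quasi-likelihood F test of edgeR and Benjamini-Hochberg adjustment over all 15847 tested genes, adjusted p-values ran from 0.0553 for Mrc1 to 0.661 for Cd163, so that 0 of 9 were called, against 4.57% of all tested genes called lower and 7.60% called in either direction. At an unadjusted p under 0.05, 6 of 9 were lower, against 12.6% of all tested genes. DESeq2 called 5 of them lower (Adgre1, Cd68, Mrc1, Itgam and Lyz2), and limma-voom with sample weights called 1 (Mrc1). A negative log2 fold change was found for 9 of 9 markers and for 48.8% of all tested genes. Every CAAHR library lay below every GFP library for 6 of the 9 tested markers and for Fcgr1, compared with 14.9% of all tested genes. The median log2 fold change of the 9 was -1.08, beside 0.01 for all tested genes. In whole muscle, fewer macrophages and less of a transcript per macrophage cannot be told apart.

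**Figure D1:**
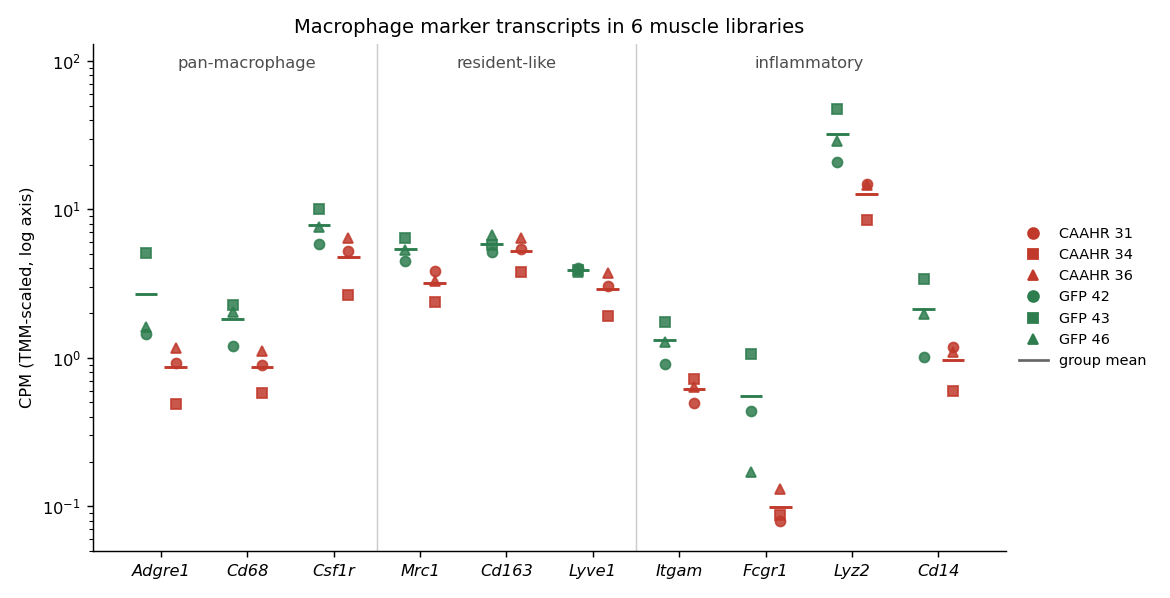
TMM-scaled CPM (log axis) of the 10 macrophage markers in each of the 6 libraries, with group means as horizontal bars, GFP in green and CAAHR in red. Lyz2 lies above all other markers, and the red and green points overlap only for Csf1r, Cd163 and Cd14.

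Of the markers carried by most macrophages, Adgre1 (chr17:57358691-57483527, plus strand, GRCm38) encodes F4/80, the adhesion receptor by which mouse macrophages are usually recognised. Its level was 0.929, 0.490 and 1.17 CPM in CAAHR 31, 34 and 36 and 1.45, 5.07 and 1.61 CPM in GFP 42, 43 and 46. The groups did not overlap, but GFP 43 stood far above the other GFP muscles, which lay close to CAAHR 36. The mean was 0.861 ± 0.343 CPM (SD, n = 3) with CAAHR and 2.71 ± 2.05 CPM (SD, n = 3) with GFP, a log2 fold change of -1.64 ± 0.56 (SE) with a 95% confidence interval from -2.94 to -0.33 (edgeR adjusted p = 0.127). Without GFP 43 the log2 fold change of Adgre1 was -0.82.

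Cd68 (chr11:69664213-69666153, minus strand) encodes a glycoprotein of the lysosomal membrane. It was measured at 0.890, 0.578 and 1.12 CPM in the CAAHR muscles and at 1.202, 2.26 and 2.04 CPM in the GFP muscles. The highest CAAHR muscle and the lowest GFP muscle were near each other, without overlap. The log2 fold change was -1.08 ± 0.32 (95% confidence interval -1.81 to -0.36, edgeR adjusted p = 0.0722), and it stayed between -1.33 and -0.87 with any 1 library left out. Cd68 passed the test without GFP 42 (edgeR adjusted p = 0.0484).

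Csf1r (chr18:61100598-61132149, plus strand) encodes the receptor kinase for CSF1 and IL-34, on which most tissue macrophages depend. Its level was 5.22, 2.64 and 6.41 CPM with CAAHR and 5.89, 10.1 and 7.55 CPM with GFP. Here the groups overlapped, since CAAHR 36 was above GFP 42. The log2 fold change was -0.72 ± 0.33 (95% confidence interval -1.48 to 0.05, edgeR adjusted p = 0.237), and -0.43 without CAAHR 34. On the annotation, 15.1% of the exon bases of Csf1r are shared with Hmgxb3 on the other strand, and whether the libraries were stranded, which set how reads were counted, is not given in the sources used here.

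Among the resident-like markers, Mrc1 (chr2:14229392-14332057, plus strand), which encodes the mannose receptor CD206, came closest to the threshold of all 9. It stood at 3.86, 2.36 and 3.31 CPM in CAAHR muscle and at 4.52, 6.39 and 5.29 CPM in GFP muscle. All CAAHR values were below all GFP values, and the coefficient of variation was 23.8% with CAAHR and 17.5% with GFP. The means were 3.18 ± 0.756 CPM and 5.40 ± 0.943 CPM (SD, n = 3 each), a log2 fold change of -0.76 ± 0.21 (95% confidence interval -1.23 to -0.30, edgeR adjusted p = 0.0553), which was -0.60 without CAAHR 34 and -0.63 without GFP 43. Mrc1 was called by DESeq2, by limma-voom and when libraries were scaled by the upper quartile.

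Cd163 (chr6:124304656-124330527, plus strand) encodes the scavenger receptor that takes up haemoglobin bound to haptoglobin, and it differed least between the groups. Levels were 5.42, 3.80 and 6.43 CPM with CAAHR and 5.16, 5.77 and 6.72 CPM with GFP. CAAHR 31 and 36 lay within the GFP range, and CAAHR 34 was below it. Its log2 fold change was -0.17 ± 0.20 (95% confidence interval -0.62 to 0.27, edgeR adjusted p = 0.661), so that a fall of up to 0.62 or a rise of up to 0.27 on the log2 scale is compatible with these libraries. Without CAAHR 34 it was 0.00.

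Lyve1 (chr7:110850607-110863239, minus strand) encodes a hyaluronan receptor. It was almost constant in GFP muscle, at 3.999, 3.92 and 3.76 CPM, a coefficient of variation of 3.16%. With CAAHR it was 3.07, 1.91 and 3.71 CPM, and CAAHR 36 was just under the lowest GFP muscle. The log2 fold change was -0.43 ± 0.23 (95% confidence interval -0.94 to 0.09, edgeR adjusted p = 0.295), -0.21 without CAAHR 34 and -0.66 without CAAHR 36. The other markers of lymphatic endothelium, in which Lyve1 is also made, summed to between 9.40 and 15.4 CPM with CAAHR and between 13.8 and 16.8 CPM with GFP. CAAHR 34 was the lowest of the 6 libraries for that list too, Ccl21a was at 0 counts in all 6, and 0 of 5 tested genes of it were called by edgeR or limma-voom, 1 by DESeq2 and 1 at an unadjusted p under 0.05. The part of lymphatic cells in the Lyve1 value was not tested.

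The 3 inflammatory markers that were tested had log2 fold changes from -1.35 to -1.08. Itgam (chr7:128062640-128118491, plus strand) encodes CD11b, the alpha subunit of complement receptor 3. Its level was 0.494, 0.718 and 0.640 CPM with CAAHR and 0.912, 1.75 and 1.28 CPM with GFP. The groups did not overlap, and Itgam was, with Fcgr1, a marker for which CAAHR 34 was not the lowest library. For Itgam the log2 fold change was -1.08 ± 0.31 (95% confidence interval -1.78 to -0.38, edgeR adjusted p = 0.0656), and -0.83 without GFP 43.

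A second row with the symbol Itgam belonged to an annotated gene, Gm49368 (chr7:128062683-128128160), that overlaps Itgam on the same strand and shares 68.7% of the exon bases of Itgam. Reads from shared exons may not have been assigned to either gene, so the Itgam level is uncertain. This second row held 14, 1 and 16 counts in CAAHR 31, 34 and 36 and 0, 3 and 3 counts in GFP 42, 43 and 46, and thus ran in the other direction in 2 of the 3 CAAHR muscles. With both rows summed, an alternative chosen after seeing the data, the log2 fold change of Itgam was -0.75 ± 0.30 (edgeR adjusted p = 0.16).

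Fcgr1 (chr3:96282909-96293969, minus strand) encodes CD64, the high-affinity receptor for IgG, and was too scarce for the test. It had 4, 5 and 8 counts in the CAAHR libraries and 21, 44 and 9 counts in the GFP libraries, or 0.0791, 0.0875 and 0.131 CPM against 0.435, 1.06 and 0.170 CPM. Each CAAHR value was below each GFP value, but CAAHR 36 and GFP 46 differed by 1 count. Fitted without a filter on low counts, its log2 fold change was -2.40 (edgeR adjusted p = 0.000303 over 28661 genes). In that same fit Lyz2, with far more counts, had an edgeR adjusted p of 0.229, so the p-value of Fcgr1 there is uncertain. Of the fits that left out 1 library, Fcgr1 entered 4 and was called in 1, the fit without GFP 46 (log2 fold change -2.86, edgeR adjusted p = 0.0324), with edgeR adjusted p-values from 0.0964 to 0.165 in the others.

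Lyz2 (chr10:117277331-117282321, minus strand) encodes lysozyme M, an enzyme that digests bacterial cell walls. It was the most abundant of the 10 transcripts, at 14.9, 8.54 and 14.5 CPM with CAAHR and 20.7, 47.1 and 28.9 CPM with GFP. All GFP muscles were above all CAAHR muscles, and GFP 43 was again the highest. This gave a log2 fold change of -1.35 ± 0.36 (95% confidence interval -2.24 to -0.46, edgeR adjusted p = 0.0852), -0.97 without GFP 43, and Lyz2 passed the test without GFP 42 (edgeR adjusted p = 0.0482). The paralog Lyz1 shares 15.4% of the 50-base windows of the Lyz2 exons and 0% of the 150-base windows.

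Cd14 (chr18:36725067-36726798, minus strand) encodes the co-receptor that hands lipopolysaccharide to TLR4. It was measured at 1.19, 0.595 and 1.10 CPM with CAAHR and at 1.02, 3.41 and 1.96 CPM with GFP. GFP 42 lay below CAAHR 31 and 36, so the groups overlapped. Cd14 had a log2 fold change of -1.14 ± 0.44 (95% confidence interval -2.16 to -0.13, edgeR adjusted p = 0.162), and it was -0.64 without GFP 43.

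**Figure D2:**
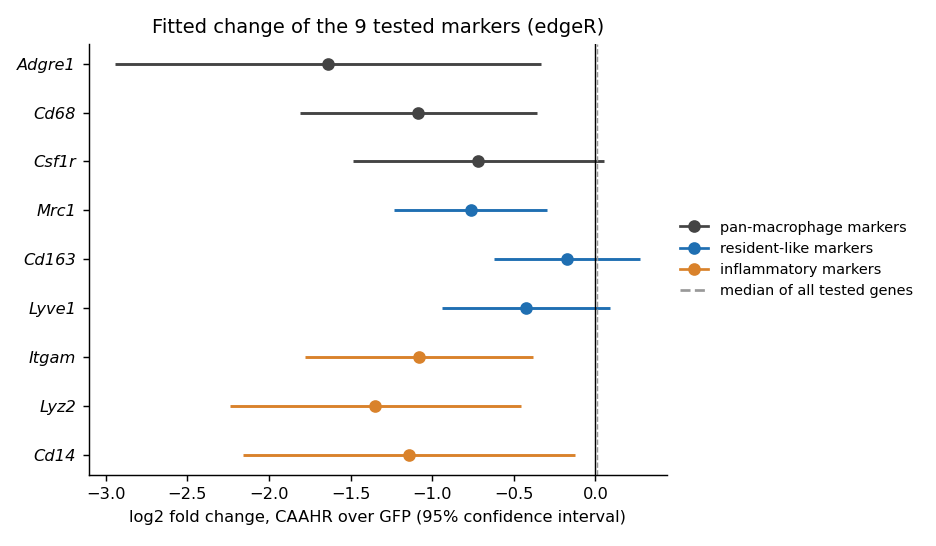
Log2 fold change of CAAHR over GFP with its 95% confidence interval for the 9 tested markers, coloured by group, from the edgeR fit with 3 libraries per group. All 9 points lie left of 0, and the intervals of Csf1r, Cd163 and Lyve1 include 0.

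Per length of transcript, Lyz2 was in a class of its own in both groups. In GFP muscle it averaged 24.5 CPM per kilobase of exon, followed by Cd68 at 1.46, Csf1r at 1.36, Lyve1 at 1.33, Cd14 at 1.23, Cd163 at 1.08, Mrc1 at 0.848 and Adgre1 at 0.837 CPM per kilobase, with Itgam at 0.262 and Fcgr1 at 0.214 CPM per kilobase at the end. From Cd68 to Adgre1 each neighbour in this order overlapped the next over the 3 libraries, as did Itgam and Fcgr1. In CAAHR muscle Lyz2 averaged 9.61 CPM per kilobase, and the resident-like markers Lyve1 (0.991 CPM per kilobase) and Cd163 (0.955 CPM per kilobase) came next, ahead of Csf1r (0.824), Cd68 (0.685), Cd14 (0.554) and Mrc1 (0.499), which again overlapped their neighbours. Adgre1 (0.266), Itgam (0.123) and Fcgr1 (0.0384 CPM per kilobase) were last in CAAHR muscle and did not overlap one another. All 10 markers together made up 36.01, 21.7 and 38.6 CPM in CAAHR 31, 34 and 36 and 45.3, 86.8 and 59.3 CPM in GFP 42, 43 and 46. Lyz2 alone gave 37.7% to 41.3% of that sum with CAAHR and 45.8% to 54.3% with GFP.

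The resident-like and the inflammatory markers were then set against each other. The median log2 fold change was -0.43 for the 3 resident-like markers, -1.08 for the 3 markers of most macrophages and -1.14 for the 3 inflammatory markers that were tested. Averaged on the log2 scale and relative to the mean of the GFP muscles, the resident-like group stood at -0.31, -0.93 and -0.21 in CAAHR 31, 34 and 36, while the inflammatory group, Fcgr1 included, stood at -1.25, -1.54 and -1.07. The GFP muscles were close together for the resident-like group (-0.13, 0.08 and 0.04) and spread out for the inflammatory group (-0.48, 0.78 and -0.30). Markers of most macrophages stood at -0.92, -1.74 and -0.62 with CAAHR, between the other groups in CAAHR 31 and 36 and below both in CAAHR 34. The resident-like median of -0.43 was -0.21 without CAAHR 34 and -0.66 without CAAHR 36.

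Within a library, the inflammatory mean minus the resident-like mean was -1.97, -1.63 and -1.88 log2 CPM with CAAHR and -1.37, -0.32 and -1.37 log2 CPM with GFP. The values did not overlap, and the group difference was -0.81 (log2 scale) with all libraries and -0.46 without GFP 43. The inflammatory mean includes Fcgr1, at 4 to 8 counts with CAAHR and 9 to 44 counts with GFP. Separation is shown only with Fcgr1 included, and the difference without Fcgr1 was not computed. Lyz2 exceeded Mrc1 3.86, 3.62 and 4.39 times in the CAAHR muscles and 4.59, 7.37 and 5.47 times in the GFP muscles. Cd163 exceeded Adgre1 5.83, 7.75 and 5.52 times with CAAHR and 3.56, 1.14 and 4.19 times with GFP. The groups were separate for both ratios, by a narrow margin for Lyz2 over Mrc1. Cd163 over Adgre1 sets a resident-like marker against a marker of most macrophages, not against an inflammatory one. Not every pair was separate. Cd14 was lower in GFP 42 (1.02 CPM) than in CAAHR 31 (1.19 CPM) while Mrc1 was higher (4.52 against 3.86 CPM), so the groups overlapped for Cd14 over Mrc1. No p-value was computed for these scores, because the markers had been chosen with results of these libraries known.

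**Figure D3:**
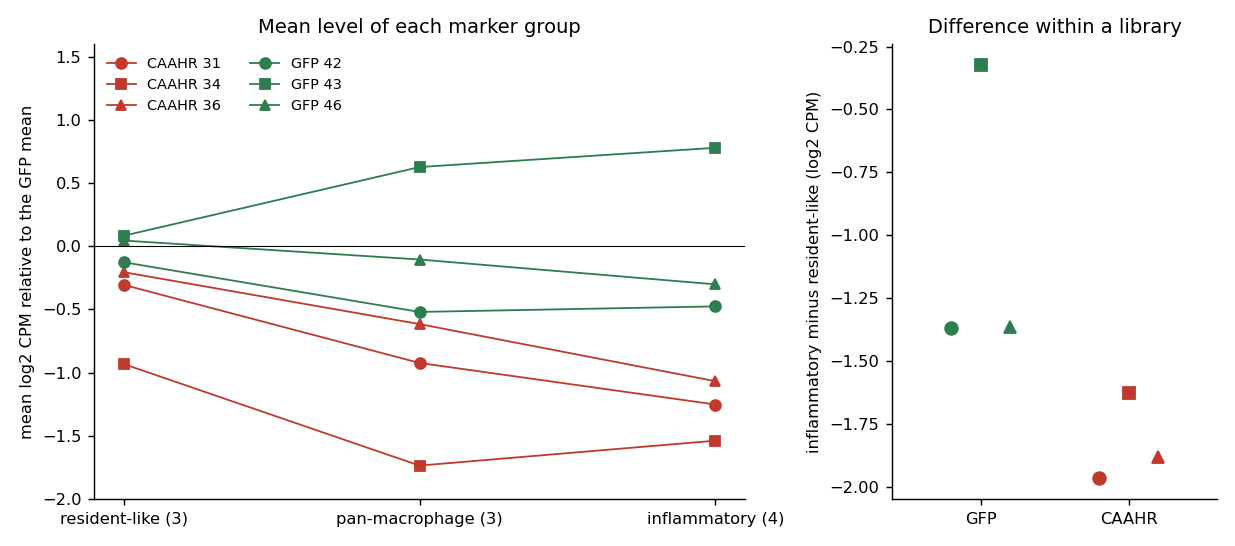
Left, mean log2 CPM of the 3 resident-like, 3 pan-macrophage and 4 inflammatory markers in each library relative to the GFP mean, joined by a line per library. Right, the inflammatory mean minus the resident-like mean in each library, from -0.32 in GFP 43 down to -1.97 in CAAHR 31, with all CAAHR muscles below all GFP muscles. The inflammatory mean includes the scarce Fcgr1, and no difference was computed without it.

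**Figure D4:**
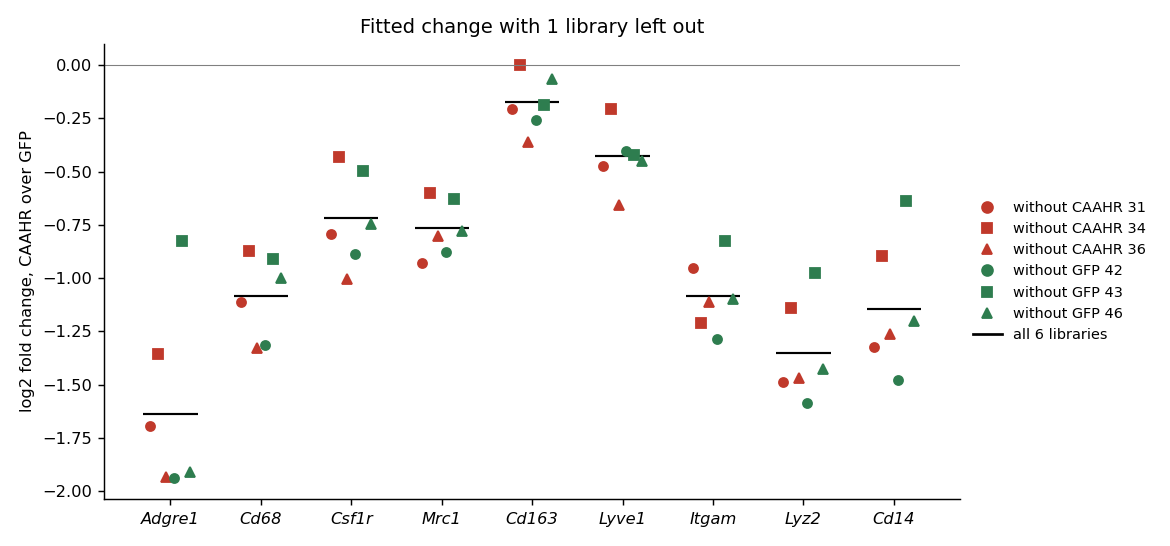
Log2 fold change of each tested marker with all 6 libraries (black bar) and with each library left out (points, coloured by the group of the omitted library). Adgre1 moves most, from -1.94 to -0.82, and Cd163 reaches 0.00 without CAAHR 34.

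Genes that work with these markers were taken from 8 lists of 78 genes, of which 66 were tested. Of the 66, 15 fell with CAAHR (22.7%, beside 4.57% of all tested genes) and all genes called by edgeR were lower. Among the 15, Ly6c2, Ccl2 and Itgax passed the filter on low counts only with the GFP libraries. The direction was lower for 56 and higher for 10, and the median log2 fold change was -0.65. The number called was sensitive to single libraries, with 4 without CAAHR 36 and 5 without CAAHR 31.

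Around CSF1R, the genes that fell were Spi1, which encodes PU.1, and Csf2rb, the common beta chain of the GM-CSF, IL-3 and IL-5 receptors. Spi1 was 0.692, 0.438 and 0.804 CPM with CAAHR and 1.18, 1.83 and 1.96 CPM with GFP (log2 fold change -1.36 ± 0.31, edgeR adjusted p = 0.0296). Csf2rb had a log2 fold change of -1.10 ± 0.24 (edgeR adjusted p = 0.0236). The ligands of CSF1R were looked at after their values were seen, and neither was called. Csf1 averaged 6.08 and 7.82 CPM (log2 fold change -0.36 ± 0.14, edgeR adjusted p = 0.153) and Il34 averaged 3.94 and 4.05 CPM (log2 fold change -0.04 ± 0.16, edgeR adjusted p = 0.92) with CAAHR and GFP. Of the 10 genes of this list 2 were called, and 0 without CAAHR 36 or without GFP 43.

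Of further genes of inflammatory monocytes 4 of 9 tested fell, and the median log2 fold change of -1.88 was the lowest among the 8 lists. Il1b, the cytokine interleukin-1 beta, was 0.257, 0.350 and 0.344 CPM with CAAHR and 1.10, 2.57 and 4.19 CPM with GFP (log2 fold change -3.03 ± 0.48, edgeR adjusted p = 0.00851). Ccl2, the chemokine that draws monocytes out of the blood, was 0.178, 0.297 and 0.722 CPM with CAAHR and 1.87, 2.14 and 2.98 CPM with GFP (log2 fold change -2.52 ± 0.44, edgeR adjusted p = 0.0118). Neither gene depended on GFP 43 for its separation, since each GFP muscle was well above each CAAHR muscle. Ccl2 held 9, 17 and 44 counts in CAAHR 31, 34 and 36 and passed the filter on low counts only with the GFP libraries. Ly6c2 is a surface marker of inflammatory monocytes with near-identical relatives whose reads may be split. It held 7, 2 and 5 counts in CAAHR 31, 34 and 36 and 21, 57 and 30 counts in GFP 42, 43 and 46. Ly6c2 passed the filter on low counts through the GFP libraries alone and had a log2 fold change of -3.19 ± 0.61 (edgeR adjusted p = 0.0144). Ifi204, an interferon-induced sensor of DNA, had one of -0.80 ± 0.21 (edgeR adjusted p = 0.0483). Of this list 1 gene was called without CAAHR 36.

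Further genes of resident macrophages had a median log2 fold change of -0.47, and 0 of 11 tested genes were called by edgeR and by limma-voom, 2 by DESeq2 and 5 at an unadjusted p under 0.05 in edgeR. The smallest p-values belonged to C1qa and C1qc, which encode chains of complement component C1q. C1qa was 4.63, 3.33 and 4.84 CPM with CAAHR and 5.82, 14.5 and 9.33 CPM with GFP (log2 fold change -1.21 ± 0.32, edgeR adjusted p = 0.063). C1qc had a log2 fold change of -1.26 ± 0.35 (edgeR adjusted p = 0.0757). Whether the resident and the inflammatory lists differed from each other was not tested.

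Itgam pairs with the beta2 chain Itgb2 to form complement receptor 3, and here 4 of the 6 genes of the beta2 integrin list fell. Itgb2 was 1.05, 0.718 and 0.968 CPM with CAAHR and 2.03, 5.14 and 2.36 CPM with GFP (log2 fold change -1.79 ± 0.37, edgeR adjusted p = 0.0229). Itgal (CD11a) had a log2 fold change of -2.03 ± 0.40 (edgeR adjusted p = 0.0155), Itgax (CD11c) one of -2.78 ± 0.62 (edgeR adjusted p = 0.0316) and Icam1, the ligand on endothelium, one of -1.16 ± 0.28 (edgeR adjusted p = 0.0395). Itgax held 15, 8 and 10 counts in CAAHR 31, 34 and 36 and 38, 112 and 36 counts in GFP 42, 43 and 46. It passed the filter on low counts only with the GFP libraries. All 3 alpha or beta chains named here were lower in each CAAHR muscle than in each GFP muscle. None of the 4 was called without CAAHR 31 or without CAAHR 36.

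CD64, the product of Fcgr1, is 1 of the Fc gamma receptors, and 4 of 5 further genes of that list were tested. EdgeR and limma-voom called 0 of the 4 and DESeq2 called 4, and all 4 had an unadjusted p under 0.05, with a median log2 fold change of -1.17. Fcgr3, the low-affinity IgG receptor CD16, was 1.01, 0.665 and 1.15 CPM with CAAHR and 1.47, 2.84 and 1.72 CPM with GFP (log2 fold change -1.09 ± 0.31, edgeR adjusted p = 0.066). Fcgrt, which encodes the neonatal Fc receptor that recycles IgG in many cell types, had a log2 fold change of -0.39 ± 0.12 (edgeR adjusted p = 0.0721).

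Genes of the TLR4 complex, with which Cd14 acts, showed no call in edgeR or DESeq2, 1 in limma-voom and 2 of 8 at an unadjusted p under 0.05 in edgeR. Tirap, an adaptor of TLR2 and TLR4, averaged 18.3 and 23.3 CPM with CAAHR and GFP (log2 fold change -0.35 ± 0.12, edgeR adjusted p = 0.108). Tlr2 averaged 0.657 and 1.33 CPM (log2 fold change -1.01 ± 0.36, edgeR adjusted p = 0.126). Tlr4 itself, named after its values were seen, ran the other way with 4.81, 0.963 and 2.48 CPM in CAAHR muscle and 1.37, 0.985 and 1.30 CPM in GFP muscle. The CAAHR values of Tlr4 lay on both sides of the GFP values (log2 fold change 1.16 ± 0.52, edgeR adjusted p = 0.23).

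Of the scavenger receptors, to which Cd163 and Mrc1 are functionally close, 3 of 7 fell. Stab2, a hyaluronan receptor of sinusoidal endothelium, was 8.64, 15.4 and 10.2 CPM with CAAHR and 26.7, 32.0 and 26.3 CPM with GFP (log2 fold change -1.31 ± 0.21, edgeR adjusted p = 0.00881). Cxcl16, a membrane-bound chemokine that also takes up oxidised lipoprotein, had a log2 fold change of -1.84 ± 0.35 (edgeR adjusted p = 0.0143), and Scarb1, the receptor for high-density lipoprotein, one of -0.61 ± 0.12 (edgeR adjusted p = 0.0181). Stab2 and Scarb1 are also made by cells other than macrophages. The median over this list was -0.61. Without CAAHR 31, 1 gene of the list was called, and DESeq2 also called 1 gene higher. Cd36, the fatty acid transporter, was named after its values were seen and averaged higher with CAAHR, at 408, 153 and 295 CPM against 149.5, 141 and 155 CPM with GFP (log2 fold change 0.94 ± 0.33, edgeR adjusted p = 0.144), with CAAHR 34 inside the GFP range.

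Of the lysosomal and phagocytic genes, the company of Cd68 and Lyz2, 2 of 11 fell. Mpeg1, which encodes perforin-2, was 1.13, 0.910 and 1.30 CPM with CAAHR and 3.85, 10.9 and 3.08 CPM with GFP (log2 fold change -2.41 ± 0.52, edgeR adjusted p = 0.0407). Lgals3, the lectin galectin-3, was 2.53, 3.12 and 3.04 CPM with CAAHR and 5.18, 7.16 and 4.68 CPM with GFP (log2 fold change -0.97 ± 0.19, edgeR adjusted p = 0.0167). The median over the list was -0.16. Neither gene was called without CAAHR 31 or without CAAHR 36, 1 was called without CAAHR 34, and limma-voom called 1 of the list.

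Markers of other leucocytes were compared in the same libraries. All 4 markers shared by leucocytes (Ptprc, Laptm5, Coro1a and Cd53) fell, and their sum was 5.30 to 5.77 CPM with CAAHR and 11.6 to 33.5 CPM with GFP. Here limma-voom called 0, and edgeR called 0 without CAAHR 31 or CAAHR 36 and 1 without CAAHR 34 or GFP 46. Of the neutrophil markers 4 of the 5 tested fell (S100a8, S100a9, Retnlg and Csf3r) and the list summed to 2.38 to 3.32 CPM with CAAHR and 7.07 to 17.03 CPM with GFP, although Camp and Ly6g had no more than 3 counts in any library. Retnlg held 10 counts in each CAAHR library and 38, 34 and 81 counts in GFP 42, 43 and 46. It passed the filter on low counts only with the GFP libraries. Without CAAHR 36, 2 neutrophil markers were called. Since neutrophils also carry Itgam and Lyz2, these values stand beside both. Their part in the values of Itgam and Lyz2 was not tested.

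Lymphocyte markers, of which 1 of 5 tested fell (Cd79a), summed to 1.43 to 2.08 CPM with CAAHR and 3.01 to 10.9 CPM with GFP. Cd79a had only 8, 10 and 13 counts in CAAHR 31, 34 and 36 and 18, 65 and 31 counts in GFP 42, 43 and 46. Cd79a passed the filter on low counts only with the GFP libraries. Lymphocyte calls numbered 2 without GFP 42 and 0 in each of the other 5 fits that left out 1 library, 0 with limma-voom and 3 with DESeq2. Of the dendritic cell markers 1 of 5 tested fell (Ccr7), with sums of 6.44 to 8.35 CPM and 8.69 to 9.37 CPM. Ccr7 had 1, 2 and 1 counts in CAAHR 31, 34 and 36 and 13, 17 and 21 counts in GFP 42, 43 and 46. It passed the filter on low counts through the GFP libraries alone. Zbtb46, the most abundant of the list, averaged 6.26 and 6.73 CPM with CAAHR and GFP (log2 fold change -0.11 ± 0.14, edgeR adjusted p = 0.711). It supplied most of each sum, so the sums mainly follow Zbtb46. All 5 tested dendritic cell markers had a negative log2 fold change, with a median of -0.73. GFP 43 was the highest library of the lymphocyte, dendritic and shared leucocyte lists as well as for 8 macrophage markers, whereas GFP 46 was the highest for neutrophil markers. Blood endothelial markers summed to 148 to 217 CPM with CAAHR and 146 to 190 CPM with GFP and those of fibro-adipogenic progenitors to 228 to 450 CPM and 365 to 419 CPM, with 0 genes called in either list by edgeR, DESeq2 or limma-voom and 0 at an unadjusted p under 0.05. CAAHR 34 was the lowest CAAHR library for both, as it was for most macrophage markers, and the part of this library's make-up in the marker values was not tested.

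**Figure D5:**
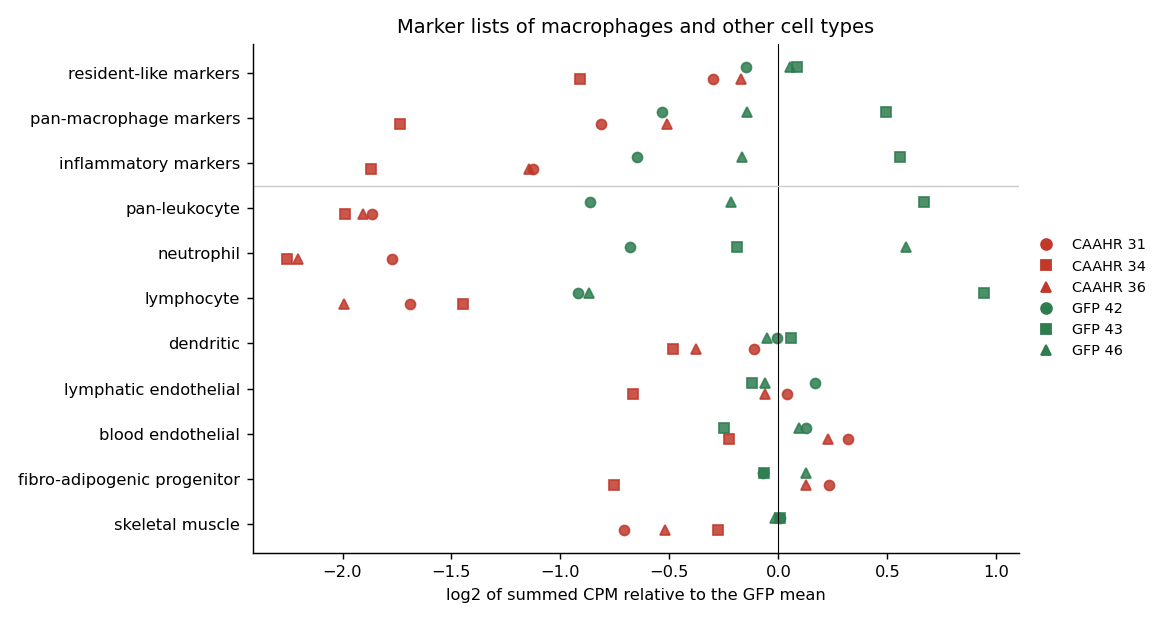
Summed TMM-scaled CPM of each marker list in each library, as log2 relative to the GFP mean (x axis), for the 3 groups of macrophage markers (above the line) and 8 other cell type lists. CAAHR points are left of all GFP points for the shared leucocyte, neutrophil, lymphocyte, dendritic and skeletal muscle lists and overlap them for the lymphatic endothelial, blood endothelial and fibro-adipogenic lists. Among the macrophage groups, the pan-macrophage sums overlap (8.69 CPM in CAAHR 36, 8.54 CPM in GFP 42). The inflammatory sums are separate, and the resident-like sums are separate by a narrow margin (13.45 CPM in CAAHR 36, 13.68 CPM in GFP 42).

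The transcripts whose levels over the 6 libraries ran closest to a marker were found among 12241 genes with a mean of at least 1 CPM, by the root mean square difference of centred log2 CPM. For Adgre1 they were Dock2 (0.157), Ifit3 (0.270), Cd274 (0.283), Fgl2 (0.295) and Itgb2 (0.296), where the median gene differed by 1.01. For Lyz2 they were Ifit3 (0.116), Laptm5 (0.138), Mt1 (0.143), C1qa (0.145) and Itgb7 (0.148), with a median of 0.813. For Mrc1 they were Slc40a1 (0.0881), Gpx3 (0.0881), Fgf2 (0.103), Hist1h3d (0.113) and Tnfaip8 (0.113), with a median of 0.504. The neighbours of Adgre1 and Lyz2 had Ifit3 in common, and no neighbour of Mrc1 was among them. The closest other marker was Lyz2 for Adgre1 (0.310), Cd14 for Lyz2 (0.225) and Csf1r for Mrc1 (0.243). With 6 libraries and a large difference between GFP 43 and the rest, likeness of pattern describes these libraries only.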

How the data were processed

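Polyadenylated RNA from 6 gastrocnemius muscles was sequenced as paired ends. The authors deposited raw counts for each gene, made by trimming reads (Trimmomatic 0.36), aligning them to GRCm38 (STAR 2.5.2b) and summing uniquely assigned exonic reads with featureCounts. They were not normalised or pooled, and counting followed the strand where a library was stranded, which is not given for these. Library titles gave the groups. Replicates were male mice, 3 per group, so variation between animals entered the error on which the p-values rest. In edgeR that error was also moderated with information from the other tested genes.

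Counts were fitted in R 4.3.3 with edgeR 4.0.16 (filterByExpr, TMM, robust quasi-likelihood F test), with Benjamini-Hochberg adjustment over all 15847 genes tested and a threshold of 0.05. The filter kept a gene with enough counts in 3 libraries, so a gene scarce in CAAHR muscle could enter through the GFP libraries alone. Standard errors came from the F statistic. Levels are TMM-scaled CPM. Exon lengths and positions are from GENCODE M21, and Itgam was the row whose identifier bears that name there. DESeq2 1.42.0 and limma 3.58.1 were alternatives, together with other scalings, filters and leaving out each library. In a test on simulated data for CAAHR against GFP (15632 genes), 74% of 100 genes changed 2-fold and 90% of 100 changed 4-fold were called, and 10.4% of 183 calls were of unchanged genes.

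Members, lists and tests were chosen with earlier results of these data known. All markers were named, and of each pathway list the called genes or, with none called, the 2 with the smallest p-values. Rows without a symbol (174) were kept as genes. Floors of 3 counts cover counting error only.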

Additional observations from a re-analysis of the deposited data

How the results depend on the processing

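Under 15 alternatives, 126 of 127 refitted log2 fold changes of single markers kept their direction, 16 of them newly past the threshold. The exception was Cd163, at 0.0013 without CAAHR 34 (range -0.36 to 0.0013 with 1 library left out). The number of markers called, 0, became 7 of 10 without a filter on low counts (Adgre1, Cd68, Csf1r, Mrc1, Itgam, Fcgr1 and Cd14), 5 with DESeq2, and 1 each with upper-quartile scaling (Mrc1), with limma-voom (Mrc1) and with edgeR without robust estimation (Lyz2). It was 0 to 2 with 1 library left out (Cd68 and Lyz2 without GFP 42, and Fcgr1 without GFP 46, where Fcgr1 passed the filter through GFP 42 and 43 alone). Without a filter the edgeR adjusted p was 9.36e-05 for Adgre1 but 0.229 for Lyz2, the most abundant marker, with log2 fold changes of -1.62 and -1.33. The calls of that fit are therefore uncertain. The 1205 genes called in all became 2470 without the filter, 1923 with DESeq2 and 530 to 1727 with 1 library left out, and the 15 pathway genes became 35, 27 and 4 to 18. Of all calls 60.1% were lower, against 73.4% with upper-quartile scaling and 40.7% with library size alone, where the median of all genes moved to -0.06 and 0.09, and the 9 markers stayed below 0 under both. The median of the 9 was -0.64 without GFP 43. The cause of these shifts was not tested. Summing both Itgam rows, chosen after seeing the data, left the number called at 0. No paired analysis was possible because CAAHR and GFP libraries share no replicate numbers. Depth limits Fcgr1, at 4 to 8 counts per CAAHR library.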

Other observations

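Lyz1, the intestinal paralog of Lyz2, was looked up after the values of Lyz2 were seen. It was 0.574, 0.560 and 0.574 CPM in CAAHR 31, 34 and 36 and 0.891, 2.67 and 1.79 CPM in GFP 42, 43 and 46. The CAAHR muscles were nearly identical, and all lay below the GFP muscles. Its log2 fold change was -1.64 ± 0.38 (SE, 95% confidence interval -2.48 to -0.79) with an edgeR adjusted p of 0.0305, past the threshold that Lyz2 missed. Lyz1 was lower in 3 of 3 CAAHR libraries than in every GFP library.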
